A study of Strongylocentrotus purpuratus with 8 samples.

Results

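The Wnt ligand genes of the purple sea urchin Strongylocentrotus purpuratus are described here in hatched blastulae whose zygotes had been injected with a morpholino against SpRunt-1. They are the array targets whose names contain the letters _WNT_ or Sp-Wnt, in either case. The search matched 9 of the 6414 targets. One of them, WNT INHIBITORY FACT, is named for an extracellular Wnt antagonist and is described with the antagonists. The other 8 are named for ligands. A list that came with the rule held 7 of them and left out Wnt5, which is included here. They are Wnt6 (gb_mcc_GLEAN3_13570_Sp-Wnt6 on the array), Wnt8 (gb_mcc_GLEAN3_20371_Sp-Wnt8), WntA (gb_mcc_GLEAN3_24946_Sp-WntA_GLEAN3...), Wnt5 (gb_mcc_GLEAN3_26277_Sp-Wnt5), 2 targets both named Wnt1 (gb_mcc_GLEAN3_11130_Sp-Wnt1 and gb_mcc_GLEAN3_11756_Sp-Wnt1) and 2 targets named for a WNT 4 protein. The latter are called WNT 4 PROTEIN (gb_ASBL1sing_91951_WNT_4_PROTEIN) and WNT 4 (P47793) (gb_ASBL1sing_RE_P47793_WNT_4_PROTE...) below. Of the 286 signalling gene models on the array with a name of this style, 284 have names of at most 4 characters, so names appear to be shortened. Either target named Wnt1 may therefore be another Wnt gene whose name begins with the same letters.

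Wnt proteins are secreted, lipid-modified signals that bind Frizzled receptors with LRP co-receptors, or other receptors such as Ryk. In the canonical branch this stops the destruction complex from degrading beta-catenin, which then enters the nucleus and acts with Tcf/Lef factors on target genes. In sea urchin embryos, nuclear beta-catenin at the vegetal pole sets apart the endoderm and mesoderm from the ectoderm, and Wnt ligands sustain and relay this signal through the blastula stages. SpRunt-1 encodes a Runx transcription factor, and earlier work on sea urchin blastulae linked Runx and Wnt activity. The comparison below asks how the transcripts of these ligands differed between morphants and untreated embryos.

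A splice-blocking morpholino is a synthetic oligonucleotide that binds a pre-mRNA and disturbs its splicing. The 4 morphant samples came from 4 cultures of wild-caught, outbred adults, each with a different mating pair, and each yielded about 5 µg of RNA from 3600 injected embryos. A single pool served as the control, about 20 µg of RNA from about 14400 embryos of those 4 cultures that were left untreated. Morphants and controls grew in filtered seawater at 15 °C until 18 hours after fertilization. Embryos injected with a control oligonucleotide were not analysed here, so the effects of injection and of the loss of SpRunt-1 cannot be told apart. Each morphant RNA met the pool on 2 two-colour arrays, once in Cy5 and once in Cy3, which gave 8 arrays on 1 chip and n = 4 cultures. Because the control was a single pool, a ratio was tested against 0, and its error leaves out the spread between control cultures. In whole embryos, fewer cells of a type and less RNA per cell cannot be told apart.

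The arrays were dim: their median signal lay between 59.9 and 95.5 over both dyes, against a median local background of 44 to 51. The number of cultures and the single control pool limit the precision. Of the 6414 targets, 5481 had a probe well above background in either RNA on at least 4 of the 8 arrays, and limma's adjusted p was under 0.05 for 274 of these (5.00%), 162 (2.96%) higher and 112 (2.04%) lower in morphants. With arrays centred on their medians in place of a loess curve, 49 were higher and 7 lower. The Runt probes, whose position relative to the affected splice site is not given, had log2 ratios of −0.18 ± 0.27 (CUST_8630; limma adjusted p = 0.345) and −0.20 ± 0.09 (CUST_8629; limma adjusted p = 0.119 among all probes; SD, n = 4 for both). Centred on the medians, CUST_8630 gave 0.08, against a median of 0.10 over all targets, so its sign was not settled. These values do not measure how well splicing was blocked.

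Each of the 8 ligand targets had a kept probe and was tested. None reached a limma adjusted p under 0.05, against 5.00% of all targets. At an unadjusted p under 0.05 the count was 2 of 8, Wnt6 and WNT 4 PROTEIN, against 35.3% of all targets. Of the ligands 4 had a mean log2 ratio above 0 and 4 below 0. Their median was 0.01, against −0.02 over all targets. In the plot of both probes by culture, the ligands differed in their spread. The SD between cultures of the brighter probe was 0.34 to 0.69 for Wnt6, both WNT 4 targets and Wnt1 (GLEAN3_11130). It was 0.21 for Wnt1 (GLEAN3_11756), against a median of 0.24 over all targets. For Wnt8, WntA and Wnt5 it was 0.07 to 0.09, with ratios near 0. Their signals lay near background, and the scanner software's own log ratio gave Wnt8 −0.60, WntA −0.34 and Wnt5 −0.03. Their small spread is therefore not read as steady expression.

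**Figure D1:**
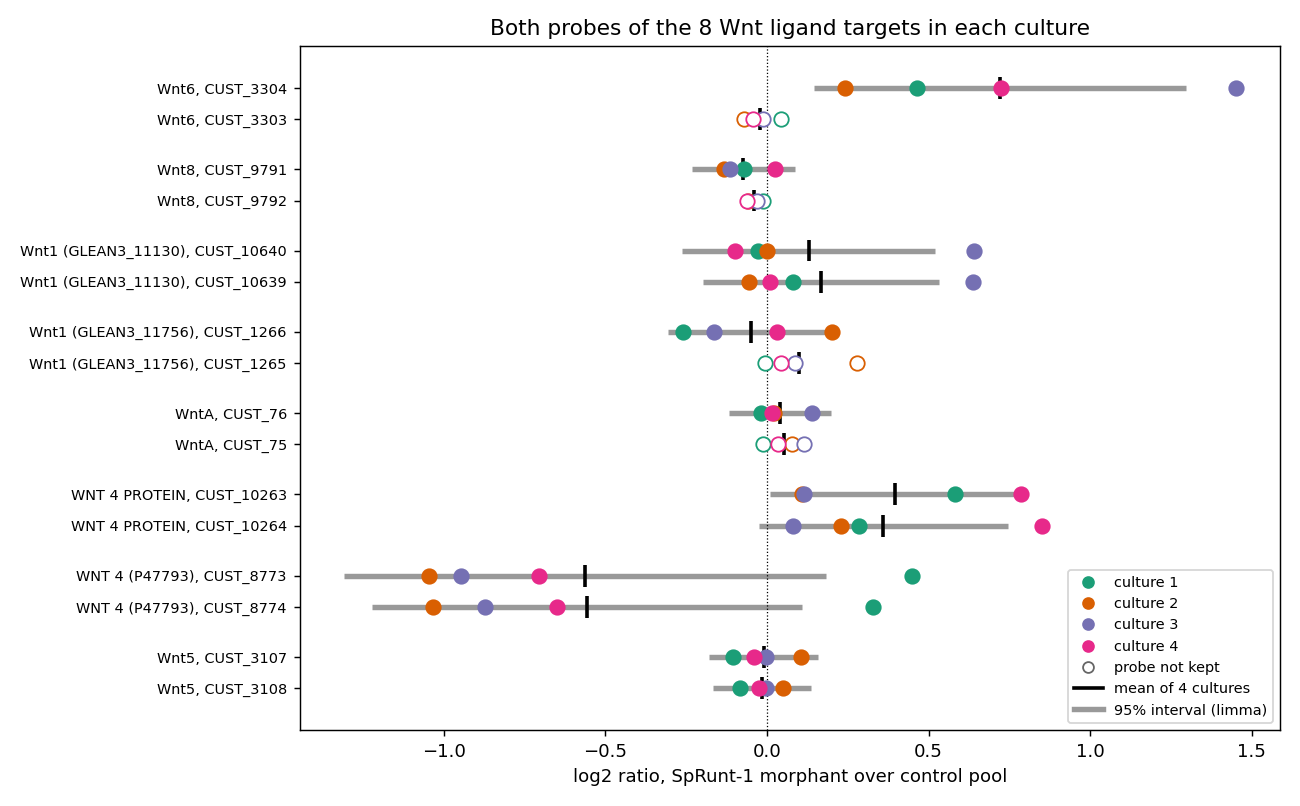
Log2 ratio of morphant over control (horizontal axis) for both probes of the 8 Wnt ligand targets, with 1 point per culture (the mean of its 2 dye orientations), a black bar for the mean and a grey bar for limma's 95% interval. Open points are the 4 probes not kept for dim signal, and the points of culture 3 stand apart to the right for Wnt6 and Wnt1 (GLEAN3_11130), as that of culture 1 does for WNT 4 (P47793).

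Wnt6, a maternally supplied ligand that takes part in endoderm specification in sea urchins, had the highest mean ratio of the ligand targets. Its bright probe (CUST_3304) was well above background in morphant and control RNA on all 8 arrays. The morphant signal was 2.68, 4.48, 10.3 and 5.02 times the local background in cultures 1 to 4, and the control signal on the same arrays was 1.71, 1.79, 1.89 and 1.92 times. No array's control value (1.40 to 2.02) reached the lowest morphant value (2.58), before any normalization. After the loess curve the log2 ratios were 0.47, 0.24, 1.45 and 0.73. All 4 lay above 0, which held for 20.9% of all targets, and culture 3 was the highest. The mean was 0.72 ± 0.53 (SD, n = 4), or 1.65-fold, with a 95% interval of 1.11-fold to 2.46-fold. Its unadjusted limma p was 0.0242 and the adjusted p 0.104, so Wnt6 did not pass the threshold. Wnt6 did pass in 2 of the alternatives, with culture as a random block over all 8 arrays (limma adjusted p = 0.0132) and with the scanner software's own log ratio (1.24; limma adjusted p = 0.0439). More of all 5481 targets passed there too, 1444 with the block and 839 with that log ratio, against 274 as processed here. The block fit enters both arrays of a culture, which hold the same RNAs, so it is less cautious than the fit of n = 4 culture means. Without culture 3, the mean was 0.48 (limma adjusted p = 0.178).

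The other probe of Wnt6 (CUST_3303) carried no measurement of it. It was not well above background in either RNA on any array, with signals of 0.940 to 1.1 times the background in morphants and 0.977 to 1.07 times in the control. Its mean log2 ratio of −0.02 ± 0.05 (SD, n = 4) therefore sets no bound on the transcript, and the Wnt6 ratio rests on 1 probe.

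The target WNT 4 PROTEIN was also above 0 in all 4 cultures, and both its probes were well above background in both RNAs on all 8 arrays. Wnt4 proteins are best known from vertebrates, where they act in kidney and gonad development. The morphant signal of the brighter probe (CUST_10263) was 6.12, 7.14, 5.56 and 10.6 times the background in cultures 1 to 4, against 3.95, 2.77, 2.95 and 3.62 times for the control. Its log2 ratios were 0.58, 0.11, 0.11 and 0.79, high in cultures 1 and 4 and near 0 in cultures 2 and 3. The mean was 0.40 ± 0.34 (SD, n = 4), or 1.32-fold, with a 95% interval of 1.01-fold to 1.73-fold and a limma adjusted p of 0.139. The dimmer probe (CUST_10264) gave 0.28, 0.23, 0.08 and 0.85, with a mean of 0.36 ± 0.34 (SD, n = 4) and a limma adjusted p of 0.163 among all probes. Both probes were highest in culture 4 and lay above 0 in every culture, and neither passed.

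The other target of that name, WNT 4 (P47793), went the opposite way in 3 of the 4 cultures. Both its probes were well above background in both RNAs on all 8 arrays. The morphant signal of the brighter probe (CUST_8773) was 7.25 times the background in culture 1 and 3.94, 2.97 and 4.07 times in cultures 2 to 4, against 5.12, 3.87, 3.64 and 4.39 times for the control. The log2 ratio was 0.45 in culture 1 and −1.05, −0.95 and −0.71 in cultures 2 to 4. Culture 1 stood on the other side of 0 from the rest. The mean of −0.56 ± 0.69 (SD, n = 4), or 0.677-fold, had a 95% interval of 0.404-fold to 1.14-fold and a limma adjusted p of 0.218. The dimmer probe (CUST_8774) gave 0.33, −1.03, −0.87 and −0.65, with the same mean of −0.56 (SD 0.61, n = 4), and the ratios of both probes correlated at 0.995 over the 8 arrays. Without culture 1, the one culture above 0, the brighter probe gave −0.90 and passed (limma adjusted p = 0.0351). In that setting 887 of all 5481 targets passed, against 274 with all cultures. With no within-array normalization its mean was 0.08, above 0 but below the median of 0.31 over all targets. The sign of this target's ratio against 0 thus depended on the processing.

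The Wnt1 target with gene model GLEAN3_11130 was high in 1 culture. In a study of S. purpuratus, Wnt1 was found to hold back Nodal signalling at the vegetal side. Its probe CUST_10640 was well above background on all 8 arrays in morphants and on 6 of 8 in the control. The morphant signal was 1.48, 1.83, 3.59 and 1.57 times the background in cultures 1 to 4, against 1.43, 1.33, 1.32 and 1.40 times for the control. The log2 ratios were −0.03, 0.00, 0.64 and −0.10. Culture 3 alone was high, on both dye orientations (0.68 with the morphant in Cy5 and 0.60 in Cy3). The second probe (CUST_10639) showed the same pattern, with 0.64 in culture 3 and −0.05 to 0.08 in the others. The means were 0.13 ± 0.34 (limma adjusted p = 0.567) and 0.17 ± 0.32 (limma adjusted p = 0.429 among all probes; SD, n = 4 for both). Without culture 3 the mean of CUST_10640 was −0.04, so its sign rested on that culture.

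The second Wnt1 target, with gene model GLEAN3_11756, had values on both sides of 0. Its bright probe (CUST_1266) was well above background in both RNAs on all 8 arrays, with morphant signals of 1.97, 5.90, 3.49 and 3.63 times the background and control signals of 2.21, 2.13, 2.28 and 2.44 times. After the loess curve the log2 ratios were −0.26, 0.20, −0.16 and 0.03, and the mean was −0.05 ± 0.21 (SD, n = 4; limma adjusted p = 0.756). The interval ran from 0.806-fold to 1.16-fold. The direction was not settled, since the mean was 0.35 with arrays centred on their medians and 0.02 without culture 1. The dim probe (CUST_1265) was well above background on 3 of 8 arrays in morphants and on 0 of 8 in the control. No fold is given for this probe.

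Wnt8, a ligand of the endomesoderm network that sea urchin embryos express first in vegetal cells and then in a ring around them, lay close to background. Its brighter probe (CUST_9791) was well above background on 2 of 8 arrays in each RNA and on 4 in either, the minimum for a test. The morphant signal was 1.18, 1.16, 1.12 and 1.26 times the background, against 1.22, 1.18, 1.15 and 1.14 times for the control. The log2 ratios were −0.07, −0.13, −0.12 and 0.03, with a mean of −0.07 ± 0.07 (SD, n = 4; limma adjusted p = 0.439). The other probe (CUST_9792) was not well above background in either RNA on any array. The scanner software's log ratio, which has its own background subtraction and dye normalization and no added offset of 50, gave a Wnt8 mean of −0.60 (limma adjusted p = 0.221). Which of these steps moved the value was not tested, and the interval of 0.848-fold to 1.07-fold holds for the processing used here.

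WntA, a ligand that echinoderms and many other invertebrates have and vertebrates lack, was similarly dim. Its brighter probe (CUST_76) was well above background by the scanner software's own flags on 6 of 8 arrays in morphants and 5 of 8 in the control, with signals of 1.30, 1.16, 1.37 and 1.32 times the background in morphants and 1.27, 1.08, 1.1 and 1.17 times in the control. The log2 ratios were −0.02, 0.02, 0.14 and 0.01, with a mean of 0.04 ± 0.07 (SD, n = 4; limma adjusted p = 0.678). The sign turned with the dye orientation, from 0.11 with the morphant in Cy5 to −0.03 in Cy3. In Cy3 the local background of this spot was 66 to 73 on the 4 arrays of cultures 2 and 3, against 44 to 50 on the other arrays and in Cy5. The control in Cy3 of these cultures lay at 0.985 and 0.961 times that background, although both spots carried the flag. These cultures had the widest gaps between dye orientations for WntA, and the part of the background in them was not tested. The other probe (CUST_75) was well above background in either RNA on 3 arrays, fewer than the filter asked for, and gave 0.05. Its local background in Cy3 was 68 to 74 on the 4 arrays of cultures 2 and 3.

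Wnt5 is a ligand that in vertebrates often acts without beta-catenin, and that in a related sea urchin signals from endoderm to the neighbouring ectoderm. Its brighter probe (CUST_3107) was well above background on all 8 arrays in morphants and on 7 of 8 in the control. The morphant signal was 1.40, 1.90, 1.79 and 1.69 times the background, against 1.49, 1.28, 1.33 and 1.40 times for the control. The log2 ratios were −0.10, 0.11, −0.00 and −0.04, and the mean was −0.01 ± 0.09 (SD, n = 4; limma adjusted p = 0.921), or 0.880-fold to 1.12-fold by its interval. The other kept probe (CUST_3108) gave −0.02 ± 0.06 (SD, n = 4; limma adjusted p = 0.873 among all probes).

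**Figure D2:**
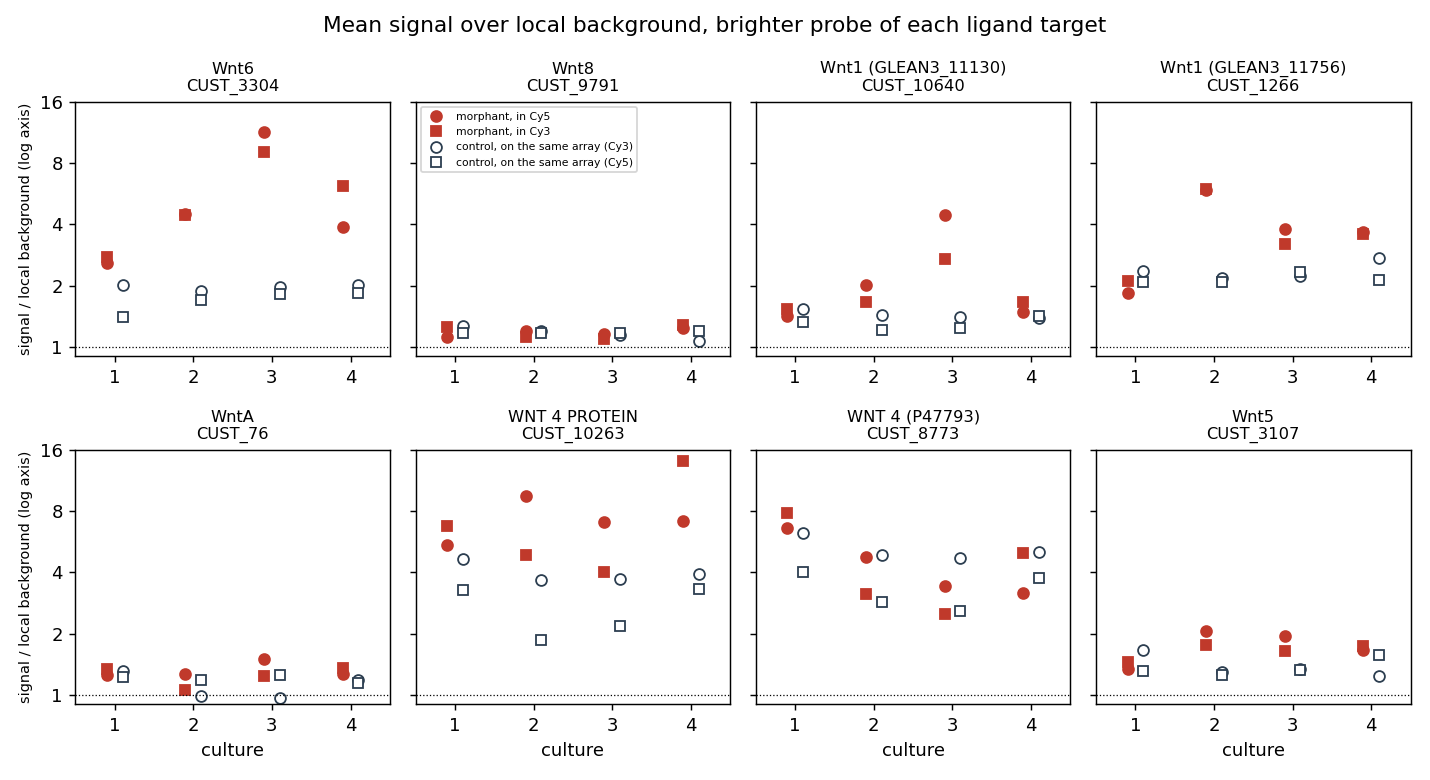
Mean spot signal divided by the local background (log axis) in each culture for the brighter probe of each ligand target, with morphant RNA in red and the control pool on the same array in open symbols, before normalization. Circles are arrays with the morphant in Cy5 and squares arrays with it in Cy3, the dotted line at 1 is the background, and Wnt8 and WntA lie close to that line while Wnt6 lies above the control on every array.

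The signals above were not normalized, and the morphant channel was brighter than the control for most probes. Before the loess curve the median log2 ratio of all probes was 0.04, 0.28, 0.27 and 0.20 in cultures 1 to 4, and that of the 5481 targets was 0.31 in the mean over cultures. The loess curve took this off according to brightness. Wnt6 went from 0.56, 1.20, 2.32 and 1.29 to the values given above, and its mean fell from 1.34 to 0.72. WNT 4 PROTEIN went from 1.09 to 0.40, WNT 4 (P47793) from 0.08 to −0.56 and Wnt1 (GLEAN3_11756) from 0.56 to −0.05. In culture 2, the last of these went from 1.28 to 0.20. Relative to the median of 0.31, Wnt6 and WNT 4 PROTEIN were thus above the other targets on both scales, Wnt5 (0.28 before) was close to the median on both, and WNT 4 (P47793) was below it on both. Wnt1 (GLEAN3_11756) was above the median before the curve and slightly below it (−0.05 against −0.02) after it. None of the 8 passed without the curve, where the limma adjusted p was 0.0597 for WNT 4 PROTEIN and 0.0747 for Wnt6.

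**Figure D3:**
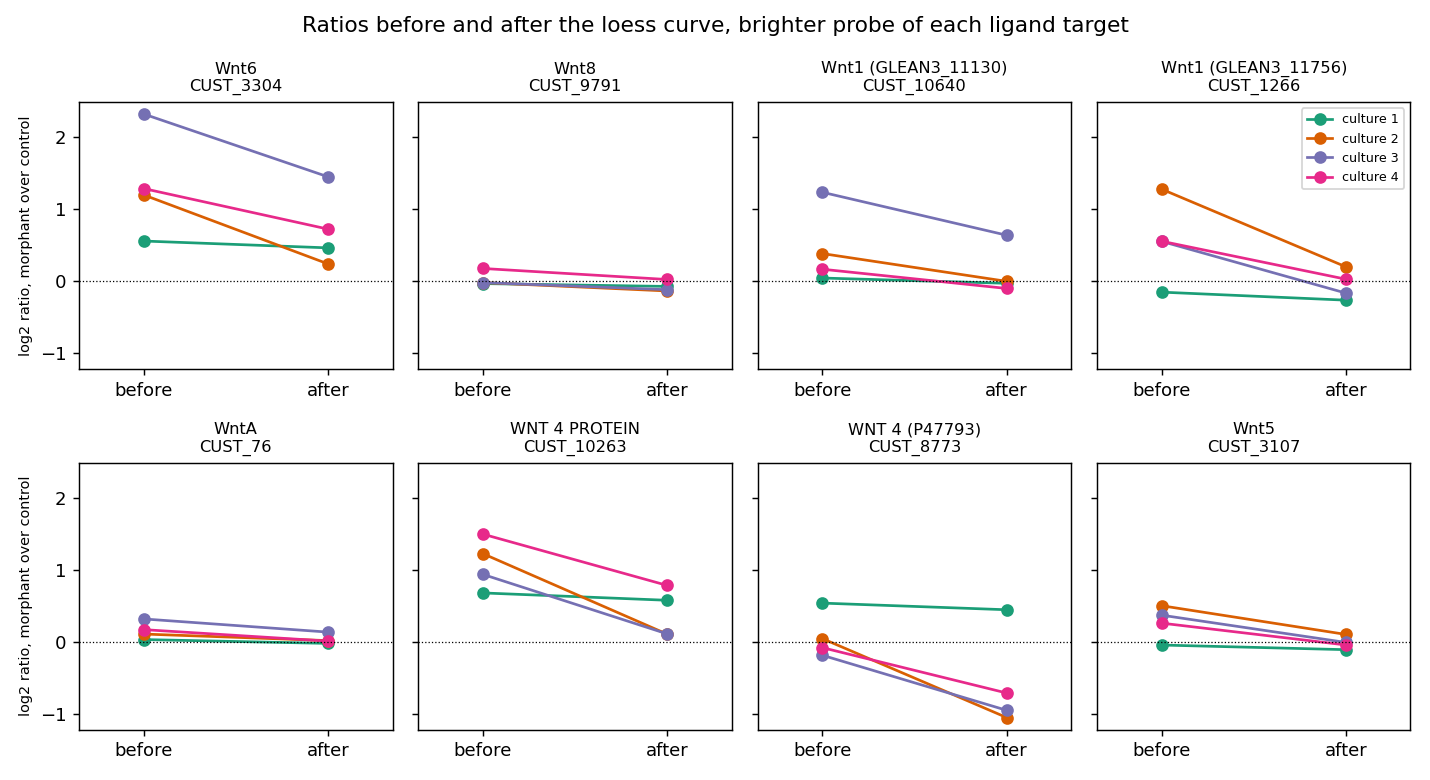
Log2 ratio of morphant over control before and after the loess curve for the brighter probe of each ligand target, with 1 line per culture (the mean of 2 dye orientations). Cultures 2, 3 and 4 shifted down more than culture 1, and the mean of Wnt6 went from 1.34 to 0.72 while that of WNT 4 (P47793) went from 0.08 to −0.56.

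Both dye orientations gave the same sign of the mean for Wnt6 (0.67 with the morphant in Cy5 and 0.77 in Cy3), WNT 4 PROTEIN (0.34 and 0.45), WNT 4 (P47793) (−0.71 and −0.41), Wnt1 (GLEAN3_11130) (0.10 and 0.16), Wnt1 (GLEAN3_11756) (−0.01 and −0.09) and Wnt8 (−0.11 and −0.03). They gave opposite signs for WntA and Wnt5. The largest gap between the 2 arrays of a culture was 0.18 for Wnt6, against a range of 1.21 between its cultures. For WNT 4 (P47793) the gap was 0.63 and the range 1.5. For WntA the gap of 0.41 was wider than the range of 0.16 between cultures, and for Wnt5 (0.37 against 0.21) and Wnt8 (0.19 against 0.16) likewise.

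**Figure D4:**
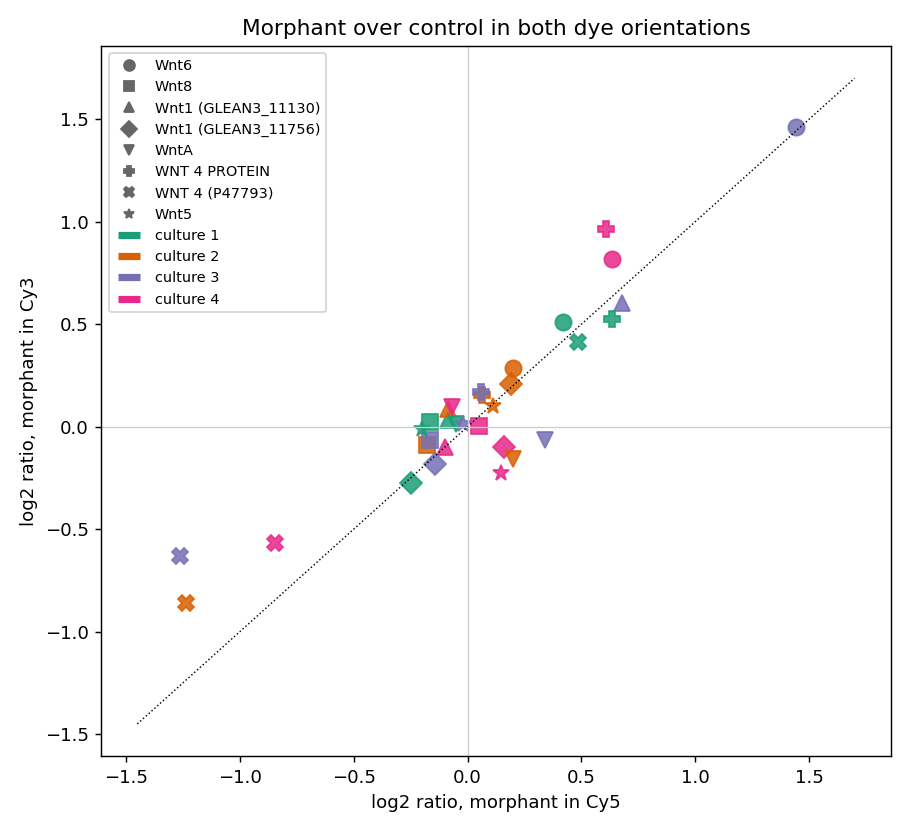
Log2 ratio of morphant over control with the morphant in Cy5 (horizontal axis) and in Cy3 (vertical axis) for the brighter probe of each ligand target (symbol) in each culture (colour), with a dotted line where both are equal. The points of Wnt6 and WNT 4 PROTEIN have 1 sign in both orientations in every culture, while WntA and Wnt5 scatter around 0.

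The cultures were then compared with each other by limma's F test on the 8 arrays with a term for the dye, in which the 2 arrays of a culture give the error. It passed for 5 of the 8 ligands, against 61.5% of all targets, which is a share close to that background. The limma adjusted p was 8.92e-06 for Wnt6, 1.85e-05 for WNT 4 (P47793), 0.000347 for Wnt1 (GLEAN3_11130), 0.000898 for WNT 4 PROTEIN and 0.0133 for Wnt1 (GLEAN3_11756). It was 0.533 for Wnt8, 0.547 for Wnt5 and 0.775 for WntA. A culture's parents and its response to the morpholino cannot be told apart in these differences, because each morphant culture was set against the pool of all 4 and not against its own control. The high culture was not the same for each ligand, being culture 3 for Wnt6 and Wnt1 (GLEAN3_11130), culture 4 for WNT 4 PROTEIN, culture 1 for WNT 4 (P47793) and culture 2 for Wnt1 (GLEAN3_11756).

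In the 4 ligand targets with 2 kept probes, both probes had 1 sign of the mean ratio, while among the 4082 targets with 2 kept probes 21.3% had opposite signs. The ratios of both probes correlated over the 8 arrays at 0.937 for Wnt1 (GLEAN3_11130), 0.866 for WNT 4 PROTEIN and 0.995 for WNT 4 (P47793), and at −0.08 for Wnt5, whose ratios barely varied. These arrays share 4 cultures and 1 control pool. Among the kept probes tested separately, none of the 12 ligand probes passed, against 5.32% of the 9563 kept probes.

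Among other named targets, those whose ratios over the 8 arrays were most like a ligand's are given as a description, since only 4 cultures lie behind the 8 arrays. The ratios of Wnt6 correlated at 0.996 with CALTRACTIN, named for a centriole protein, at 0.991 with 60S RIBOSOMAL P and at 0.979 with DNA replication li. Of the 4570 other named targets, 83 (1.82%) reached a correlation of 0.9 with Wnt6. The closest to WNT 4 (P47793) was PAK1 (0.985), followed by TFIIB RELATED F (0.984) and ATP SYNTHASE D (0.982), and 258 (5.65%) reached 0.9. The closest to WNT 4 PROTEIN were ACTIN RELATED PR (0.983), HLC 32 PROTEIN PREC (0.974) and RNA directed DNA polymera (0.973). For Wnt1 (GLEAN3_11130) they were SKF6 (0.997), CDC2 (0.985) and putative nicotinate phosp (0.984), and 112 (2.45%) reached 0.9. For Wnt1 (GLEAN3_11756) they were EF hand domain containing (0.975), X LINKED DEAFNES (0.973) and CCAAT ENHANCER (0.971). Fewer targets tracked the ligands with the smallest spread between cultures. Wnt8 had 4 at or above 0.9, led by Kv channel-interact (0.974), then Ubiquitin-conjugat (0.972) and Dpy-30-like protei (0.922). WntA had 2, Diacylglycerol (0.957) and Protein phosph (0.930), before Proprotein con (0.899). Wnt5 had 1, Epsin-2 (0.934), before Spindle assem (0.890) and Annexin-B9 (0.888). For Wnt8, WntA and Wnt5 the arrays of a culture differed more between dye orientations than the cultures did. The 2 probes of a target correlated at 0.01 for Wnt8 and −0.08 for Wnt5. Those of WntA correlated at 0.94, and both had a local background of 66 to 74 in Cy3 on the arrays of cultures 2 and 3. The part of that background in the correlation was not tested. No shared expression is read from the closest targets of these ligands. Between ligands the highest correlation was 0.865, for Wnt6 with Wnt1 (GLEAN3_11130), both highest in culture 3.

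The receptors, antagonists and intracellular members of the Wnt pathway were taken from a list of 19 targets whose names settle what they are. Of these 17 were tested, 0 passed higher (2.96% of all targets did) and 1 passed lower (2.04%). At an unadjusted limma p under 0.05 the count was 10 of 17, against 35.3% of all targets. The median log2 ratio of the tested members was −0.28, against −0.02 over all targets. With 4 more targets whose shortened names do not settle the gene (beta, Apc1, Stra and Glycogen synthase), 21 were tested, 1 passed lower and the median was −0.22. With arrays centred on their medians the pathway median was 0.00, against 0.10 over all targets. With the dimmer kept probe of each target it was 0.06, against 0.01 over all targets. The list thus lay below all targets with median centring and not with the dimmer probes, so that a lower level of the list was not settled.

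Among the antagonists, which bind Wnt proteins outside the cell, the sFRP target with gene model GLEAN3_04062 passed as lower in morphants. Its log2 ratios were −0.76, −0.66, −0.47 and −0.48, below 0 in all 4 cultures, with a mean of −0.59 ± 0.14 (SD, n = 4), or 0.664-fold (limma adjusted p = 0.0389). Its second probe gave −0.12. The ratio was nearer to 0 and the call was lost with the dimmer probe (limma adjusted p = 0.640), with the mean of the probes (−0.36; limma adjusted p = 0.114) and with arrays centred on their medians (−0.12; limma adjusted p = 0.798). With no within-array normalization the ratio was 0.09, against a median of 0.31 over all targets. The call was also lost at ratios of similar size, which were −0.51 with the scanner software's log ratio, −0.59 with an intensity trend and −0.56 with the morphant in Cy5 alone. Without culture 2, 3 or 4 the ratio was −0.57, −0.63 and −0.63, and the call was lost where 1, 0 and 0 of all 5481 targets passed. The call thus rested on the brighter probe and on the processing, and a lower level of this target was not settled. The second target named sFRP (GLEAN3_11271) had 0.11 ± 0.04 (SD, n = 4; limma adjusted p = 0.226).

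The target WNT INHIBITORY FACT had 2 bright probes that disagreed. CUST_5597 gave −1.51, −0.16, −1.26 and −1.04, with a mean of −0.99 ± 0.59 (SD, n = 4; limma adjusted p = 0.0735), and passed with the random block (0.00504) and the intensity trend (0.0422). Of all 5481 targets, 1444 passed with the block and 709 with the trend, against 274 as processed here. CUST_5598 gave 0.11, 1.59, 0.61 and 0.43, with a mean of 0.69 ± 0.64 (SD, n = 4; limma adjusted p = 0.151 among all probes). No direction can be given for this target. The gene model named WIF had no kept probe.

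Among the receptors, the Frizzled target with gene model GLEAN3_03655 had 0.39, 0.40, 0.50 and 0.21, with a mean of 0.38 ± 0.12 (SD, n = 4; limma adjusted p = 0.0569). Its second probe gave 0.29. It passed with the scanner software's log ratio (limma adjusted p = 0.0186), in the authors' table (0.0441), with the random block (0.0225) and with the intensity trend (0.0281). Of all 5481 targets, these settings passed 839, 581, 1444 and 709 in that order, against 274 as processed here. RYK, a receptor that binds Wnt proteins through a domain like that of Wnt inhibitory factor, had −0.28 ± 0.10 (SD, n = 4; limma adjusted p = 0.0744), which passed with the scanner software's log ratio, the random block and the intensity trend. The second Frizzled target (GLEAN3_22916) had −0.42 ± 0.44 (SD, n = 4; limma adjusted p = 0.177). None of the 3 receptors passed as processed here.

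Inside the cell, Axin, the scaffold of the destruction complex, had 0.02 ± 0.07 (SD, n = 4; limma adjusted p = 0.877). Pygo, a nuclear co-activator that beta-catenin recruits through Bcl9, had 0.40, 1.08, 0.61 and 0.68, with a mean of 0.69 ± 0.28 (SD, n = 4; limma adjusted p = 0.0538). Its second probe gave 0.22. Pygo passed in 6 alternatives, with limma adjusted p values of 0.0186 with the scanner software's log ratio, 0.0464 in the authors' table, 0.0171 with the random block, 0.0277 with the intensity trend, 0.0480 with the filter on all arrays and 0.0424 without culture 1. Of all 5481 targets, 839 passed with that log ratio, 581 in the authors' table, 1444 with the block and 709 with the trend. The count was 887 without culture 1 and 413 of 4486 with the filter on all arrays, against 274 as processed here. Lef1, the DNA-binding partner of beta-catenin, had 0.17 ± 0.19 (SD, n = 4; limma adjusted p = 0.242). Of the 4 casein kinase I targets, which phosphorylate several members of the pathway, the one with the smallest p had −0.33 ± 0.09 (SD, n = 4; limma adjusted p = 0.0574), and passed with the scanner software's log ratio (0.0429), the random block (0.0231) and the intensity trend (0.0404). The other casein kinase I targets had −0.81 ± 0.75, −0.29 ± 0.24 and 0.09 ± 0.47 (SD, n = 4 for each). Of the members of the planar polarity branch, Daam, a formin that binds Dishevelled, had −0.54 ± 0.40 (SD, n = 4; limma adjusted p = 0.109), and passed with the random block. The target Disheveled associat had −0.22 ± 0.10 (limma adjusted p = 0.111) and Pric −0.36 ± 0.31 (limma adjusted p = 0.147; SD, n = 4 for both). No member of these groups passed as processed here.

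**Figure D5:**
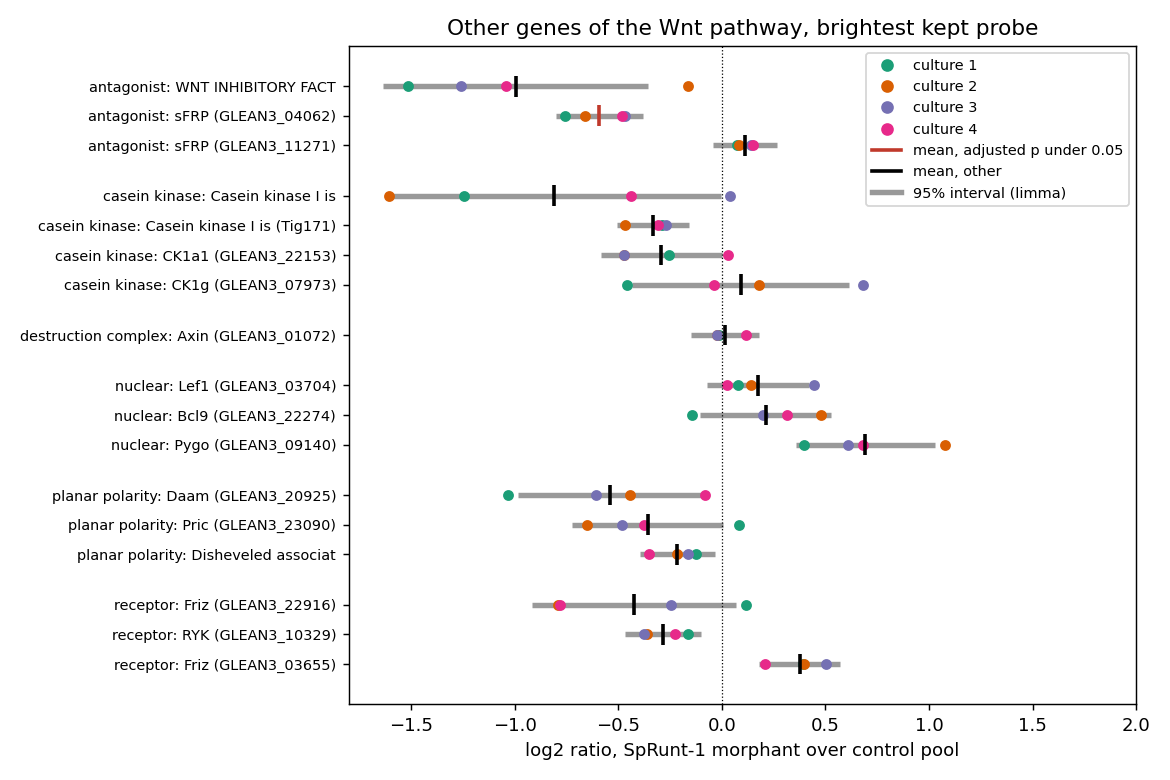
Log2 ratio of morphant over control for the 17 tested Wnt pathway targets other than ligands, by role, with 1 point per culture, a bar for the mean (red for an adjusted p under 0.05) and a grey bar for limma's 95% interval. The sFRP target with gene model GLEAN3_04062 (−0.59) is the one that passed, and WNT INHIBITORY FACT has the lowest mean (−0.99).

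Endomesoderm genes, many of which respond to nuclear beta-catenin in sea urchin embryos, were read from a list of 18 targets. Of these 16 were tested and none passed in either direction, with 7 at an unadjusted limma p under 0.05 (35.3% of all targets), and their median log2 ratio was −0.16, against −0.02 over all targets. The smallest p values belonged to Tbr, a skeletogenic regulator (0.40 ± 0.20; limma adjusted p = 0.0766), SoxC (1.15 ± 0.72; limma adjusted p = 0.0780), the Gata target with gene model GLEAN3_27015 (−0.20 ± 0.07; limma adjusted p = 0.108), Delt (−0.51 ± 0.37; limma adjusted p = 0.108) and Pmar (0.42 ± 0.30; limma adjusted p = 0.108; SD, n = 4 for each). The second probes gave 0.17 for Tbr, 0.24 for SoxC and 0.02 for Pmar. SoxC passed with the random block (limma adjusted p = 0.00550), the scanner software's log ratio (0.0367), the intensity trend (0.0400) and without culture 1 (0.0335). Tbr passed with the block (0.0274) and the scanner software's log ratio (0.0322), and Pmar with the block (0.0422) and without culture 1 (0.0429). Of all 5481 targets, 1444 passed with the block, 839 with that log ratio, 709 with the trend and 887 without culture 1. As processed here 274 did. Differences between cultures passed the F test for 13 of the 16, against 61.5% of all targets.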

How the data were processed

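Per the file headers, the authors' scanner files come from Agilent Feature Extraction 10.7.1.1 and give mean and local background intensities that were not normalized. Per the file headers they also hold the software's background-subtracted, dye-normalized log10 ratio of Cy5 over Cy3. A further table deposited by the authors has log2 ratios whose columns correlated at 0.971 to 0.993 with loess ratios of unsubtracted signals, are already turned to morphant over control and have medians of 0.000503 to 0.0248. How it was made is not stated in the labels. By identifier, 0 of 6 ligand gene models matched RefSeq genes of assembly Spur_5.0.

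In R 4.3.3 with limma 3.58.1, mean signals were corrected by normexp (offset 50) and normalized by loess with 536 control spots at weight 0. Outlier spots were dropped, ratios turned to morphant over control, and both arrays of 1 culture averaged. A probe was kept if well above background in either channel on at least 4 of 8 arrays (9563 of 12696 probes), and a target was represented by its brightest kept probe. Means over n = 4 cultures were tested against 0 (lmFit, eBayes, Benjamini-Hochberg over 5481 targets, threshold 0.05); the F test between cultures used all 8 arrays and a dye term. The fit was tested on simulated data. All targets matching the search, both Runt probes, list members that passed or had the 5 smallest p, and the 3 targets most correlated with each ligand were named. RYK, Daam, Lef1, Axin, the second sFRP and Frizzled targets were added after their values were seen. The members and lists were chosen with earlier results of these data known.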

Additional observations from a re-analysis of the deposited data

Results flagged for a closer look

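The log2 ratio of probe CUST_10640 of Wnt1 (GLEAN3_11130) in culture 3 (0.64) lay far from the other 3 cultures (−0.10 to 0.00). The gap was 0.866 of the whole range, above Dixon's 95% critical value for 4 samples. Chance marks about 1 in 20 such groups, and this was 1 of the 12 kept ligand probes. The second probe of the target had the same value of 0.64 in that culture, with a gap of 0.806 of the range, below that value.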

How the results depend on the processing

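No paired analysis was possible because the control was 1 pool, and each ratio already sets a culture against it. The number of ligands passing higher was 0, except 1 (Wnt6, 1.24) with the scanner software's log ratio and 1 (Wnt6) with culture as a random block (0.72; limma adjusted p = 0.0132). Leaving out a culture gave 0 to 1 ligand passing lower, 0 to 2 ligand probes passing (1 with the scanner software's log ratio), 0 to 1 pathway members higher and 0 to 2 lower, and mean log2 ratios of −0.0414 to 0.20 for Wnt1 (GLEAN3_11130), −0.13 to 0.0230 for Wnt1 (GLEAN3_11756), −0.0495 to 0.0210 for Wnt5 (−0.0372 to 0.00769 for its probe CUST_3108), −0.0184 to 0.0283 for Axin, −0.90 to −0.40 for WNT 4 (P47793) and 0.48 to 0.88 for Wnt6. Signs against 0 turned with arrays centred on their medians for Wnt1 (GLEAN3_11756) (0.35), Wnt5 (0.0658), WntA (−0.0491), Runt (0.0772), Gata (0.0847), Axin (−0.0419) and Friz GLEAN3_22916 (0.00462). The median of all targets was 0.10 in that setting, and of these only Wnt1 (GLEAN3_11756) lay above it. Signs against 0 also turned with no within-array normalization, chosen after seeing the data, for WNT 4 (P47793) (0.0835), Wnt1 (GLEAN3_11756) (0.56), Wnt5 (0.28), Wnt8 (0.0288), Casein kinase I (0.0669), Daam (0.20), Delt (0.15), Friz GLEAN3_22916 (0.21), Gata (0.29), Runt (0.29), RYK (0.0263) and sFRP GLEAN3_04062 (0.0930). There the median of all targets was 0.31, and again only Wnt1 (GLEAN3_11756) lay above it. WntA also turned with the scanner software's log ratio (−0.34), without background subtraction (−0.11), in the authors' table (−0.00825) and with the morphant in Cy3 (−0.0282). Wnt5 turned in the authors' table (0.0247) and with the morphant in Cy5 (0.00997). Axin turned with the morphant in Cy5 (−0.0254), and the dimmer probe turned Friz GLEAN3_22916 (0.14) and WNT INHIBITORY FACT (0.69). The cause of these turns was not tested. Of the pathway list, 2 members passed higher with the scanner software's log ratio, the authors' table, the random block, the intensity trend and a threshold of 0.10, and 1 with the filter on all arrays; 2, 6, 3 and 4 passed lower with the scanner log ratio, the block, the trend and the looser threshold, and 0 with the dimmer probe, the mean of probes, median centring, no within-array normalization and the morphant in Cy5. Of the endomesoderm list, 2, 4, 1 and 2 passed higher with the scanner log ratio, the block, the trend and the looser threshold, 0 to 3 with a culture left out, and 2 and 1 passed lower with the block and with the morphant in Cy3. Over all targets, the 162 calls higher and 112 lower became 596 and 628 at 0.10, 675 and 769 with the block, 535 and 304 with the scanner log ratio, 387 and 322 with the trend, 329 and 252 in the authors' table, 236 and 177 of 4486 with the filter on all 8 arrays (where Wnt8 and WntA were not tested), 112 and 68 with no filter, 49 and 7 with median centring, 20 and 0 with no within-array normalization, and 355 and 532 without culture 1, while 1, 0 and 0 targets passed without cultures 2 to 4. Between cultures 4 to 6 ligands differed, against 47.5% to 72.1% of all targets: WNT 4 PROTEIN did not with median centring (limma adjusted p = 0.235), and Wnt8 did with the scanner log ratio (0.00540). Quantile scaling of average intensities changes no ratio. Signals near background limit what Wnt8, WntA and Wnt5 can show.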
